A study of Mus musculus with 12 samples.

Results

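Loss of Ing1 was examined in mouse embryonic fibroblasts, the connective tissue cells that grow out of dissociated embryos, by setting the 3 libraries labelled Ing1 knockout (Ing1 KO) against the 3 labelled wild type (WT). These are 6 of the 12 RNA libraries of the study and were chosen by their titles alone. Per the labels, mice deficient in Ing1 and mice deficient in Gadd45a, both on a C57BL/6N background, were interbred, and primary cells were taken from male E15.5 embryos, cultured for 4 passages and harvested at 80% confluency. WT cells carried both genes, and Ing1 KO cells came from embryos of the Ing1-deficient stock, labelled as carrying Gadd45a. The other 6 libraries, 3 labelled Gadd45a knockout and 3 labelled double knockout (DKO), entered the same statistical model and served for a second look at Ing1 loss. The sources used here do not give the deleted part of Ing1 or of Gadd45a. Whether libraries of 1 group stem from separate embryos is not in the labels, so p-values measure the spread between libraries, which may be technical. The cultures were undifferentiated, and the labels name no treatment.

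Ing1 encodes a member of the inhibitor of growth family, proteins that read trimethylated lysine 4 of histone H3, a mark of active promoters, through a PHD finger. Ing1 brings this reading to the Sin3 histone deacetylase complex, which removes acetyl groups from nearby histones and lowers transcription, and the protein has also been tied to p53 and to DNA demethylation together with Gadd45a. Fibroblasts of the embryo lay down collagen, proteoglycans and elastic fibres, keep a memory of their place in the body through Hox and other transcription factors, and hold a low standing activity of interferon-stimulated genes.

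Ing1 counts were low in each library labelled as lacking it. Levels are given in CPM, counts divided by the scaled library size, always in the order of replicates 1 to 3, and CPM are not corrected for gene length. Ing1 (ENSMUSG00000045969, chromosome 8) had 52.1, 50.4 and 54.4 CPM in the WT and 1.01, 1.23 and 1.42 CPM in Ing1 KO (log2 fold change -5.42, SE 0.10, adjusted p = 8.51e-13 in edgeR). Both groups lay far apart, and the low remainder was alike in the 3 Ing1 KO libraries. Gadd45a (ENSMUSG00000036390, chromosome 6) had 20.9, 21.1 and 21.3 CPM in the WT and 18.04, 20.5 and 16.7 CPM in Ing1 KO (log2 fold change -0.20, SE 0.15, adjusted p = 0.38 in edgeR). It was not low in the libraries labelled Gadd45a knockout, where it had 75.9, 118 and 106 CPM, nor in those labelled DKO, where it had 132, 119.9 and 127 CPM. Counts of a whole gene can stay high where only a part of it is deleted, and Gadd45a overlaps a gene of the other strand, so these counts do not check the Gadd45a labels, and the 2 groups are called the libraries labelled Gadd45a KO and labelled DKO throughout.

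The 6 libraries held 33098932 to 41911611 gene counts each. On a principal component plot of the 6, the main axis (50.7% of the variance) separated the groups, with the WT between -29.7 and -19.7 and Ing1 KO between 18.0 and 32.6. The next axis (19.6%) spread the Ing1 KO libraries, from 22.6 for replicate 1 to -28.2 for replicate 3. Replicates of Ing1 KO differed from each other with a chi-square of 17.4 to 34.0 for each degree of freedom, where counting noise alone gives 1, and those of the WT with 7.61 to 11.2. Fibroblast markers were high as a sum. The 12 such genes, with Col1a1 and Col1a2 the largest, summed to 61840 to 66554 CPM in the WT. In Ing1 KO they summed to 59612 to 67633 CPM. By the test given below, 3 of the 12 were higher in Ing1 KO and 3 lower, Pdgfra and Twist1 among the lower. That is 50%, beside 23.5% of all genes tested. In RNA from whole cultures, fewer cells of a type and less RNA per cell cannot be told apart.

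Of 15098 genes with enough counts to test, 3543 were called, that is, had a Benjamini-Hochberg adjusted p under 0.05 in edgeR, which is 23.5% of them. Higher in Ing1 KO were 1828 (12.1%) and lower 1715 (11.4%). Most changes were modest: 2619 of the called genes (73.9%) changed less than 1.5-fold, and called changes had a median size of 0.33 on the log2 scale. Libraries of the groups did not overlap in 5620 genes (37.2%). Large changes were more often decreases, with 282 genes at least 2-fold lower (1.87% of those tested) and 144 at least 2-fold higher (0.954%), and with 39 and 16 at 4-fold. The count of called genes fell to 1858 without Ing1 KO replicate 2 and to 2113 without WT replicate 2, and the count of genes changed at least 2-fold, 426 in all, fell to 263 without Ing1 KO replicate 2. Ing1 KO replicate 2 was the library farthest from the WT mean for 165 of the 282 genes that fell at least 2-fold and for 72 of the 144 that rose as much. Replicate 3 was nearest to the WT for 98 of those 144. Among the WT, replicate 2 was farthest from the Ing1 KO mean for 165 and 79 of these genes.

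The genes that fell most after Ing1 were led by targets of interferon. Slfn5 (ENSMUSG00000054404, chromosome 11), of the interferon-induced Schlafen family, had 15.002, 19.4 and 16.9 CPM in the WT and 2.79, 1.57 and 1.92 CPM in Ing1 KO (log2 fold change -3.04, SE 0.19, adjusted p = 1e-05 in edgeR). Ifit1, whose protein binds viral RNA with an unfinished cap, had 10.2, 10.6 and 6.14 CPM in the WT and 1.19, 1.28 and 2.13 CPM in Ing1 KO (log2 fold change -2.54, SE 0.35, adjusted p = 0.000911 in edgeR). Isg15, a small ubiquitin-like modifier of other proteins, had 22.7, 21.6 and 12.5 CPM in the WT and 3.13, 3.93 and 4.34 CPM in Ing1 KO (log2 fold change -2.32, SE 0.28, adjusted p = 0.000663 in edgeR). In all these genes every WT library was above every Ing1 KO library, and in Ifit1 and Isg15 WT replicate 3 was the lowest of its group. Oasl2, a relative of the enzymes that sense double-stranded RNA, fell 5.45-fold, and Usp18, the protease that takes Isg15 off its targets, fell 4.84-fold. Sp100, a component of PML nuclear bodies that is itself induced by interferon, fell 4.08-fold (log2 fold change -2.03, SE 0.20, adjusted p = 8.34e-05 in edgeR).

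The remaining genes of the 12 that fell most had other known roles. Egfl6 (ENSMUSG00000000402, chromosome X), which encodes a secreted matrix protein that binds integrins, had 94.9, 119 and 94.9 CPM in the WT and 22.1, 10.1 and 22.8 CPM in Ing1 KO (log2 fold change -2.49, SE 0.26, adjusted p = 0.000437 in edgeR). Il31ra, a subunit of the interleukin 31 receptor, fell from 4.65 ± 0.464 to 0.992 ± 0.489 CPM (mean ± SD, n = 3 each), with replicate 2 lowest at 0.434 CPM. Olfml1, a secreted olfactomedin-domain protein, fell 4.59-fold, Cyp4b1, a cytochrome P450 enzyme, fell 4.31-fold, and Gm15446, a predicted gene, fell 6.42-fold. Cyp4b1 had 22.5, 22.6 and 17.7 CPM in the WT and 3.21, 3.44 and 7.87 CPM in Ing1 KO, so Ing1 KO replicate 3 was the nearest to the WT. Slfn5, Gm15446 and Usp18 overlap an annotated gene of the opposite strand, and reads of both cannot be told apart.

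The steepest increases were those of Acan and Col2a1. Acan (ENSMUSG00000030607, chromosome 7), which encodes aggrecan, the large proteoglycan of cartilage, had 1.42, 0.588 and 1.2 CPM in the WT and 9.25, 26.7 and 3.45 CPM in Ing1 KO (log2 fold change 3.62, SE 0.73, adjusted p = 0.00786 in edgeR). Col2a1, the cartilage type II collagen gene, had 7.08, 3.24 and 4.48 CPM in the WT and 43.4, 29.7 and 9.67 CPM in Ing1 KO (log2 fold change 2.48, SE 0.63, adjusted p = 0.0223 in edgeR). In both genes all Ing1 KO libraries lay above all WT libraries, but Ing1 KO replicate 3 was far below replicates 1 and 2. Col10a1, a collagen of maturing cartilage, rose 3.55-fold, and Spp1, which encodes the mineral-binding matrix protein osteopontin, had 282, 221 and 400.2 CPM in the WT and 1412, 767 and 481 CPM in Ing1 KO (log2 fold change 1.56, SE 0.47, adjusted p = 0.0441 in edgeR). Col2a1 lost its call without Ing1 KO replicate 1 (adjusted p = 0.0613), Ing1 KO replicate 2 (0.0675), WT replicate 2 (0.0894) or WT replicate 3 (0.0689), and Spp1 without Ing1 KO replicate 1 (adjusted p = 0.1361), Ing1 KO replicate 2 (0.0903), WT replicate 1 (0.1031), WT replicate 2 (0.1462) or WT replicate 3 (0.0593). Acan (adjusted p = 0.0587), Col2a1 (0.0594) and Spp1 (0.0817) lost the call with only the 6 libraries fitted. Spp1 (adjusted p = 0.076) lost the call without the filter on low counts.

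Transcription factors and other developmental regulators were among the other increases. Pitx1, which specifies the hindlimb, had 1.66, 1.23 and 1.99 CPM in the WT and 7.31, 6.21 and 6.02 CPM in Ing1 KO (log2 fold change 2.01, SE 0.32, adjusted p = 0.00139 in edgeR), with no overlap and little spread within a group. Foxd1, a gene of embryonic stroma, rose 3.59-fold, and Mab21l2, which is needed for development of the eye and body wall, rose 2.87-fold (log2 fold change 1.52, SE 0.21, adjusted p = 0.000619 in edgeR). Outside this group, Rbfox1, a splicing regulator of neurons and muscle, rose 3.73-fold, Itih2, which helps to anchor hyaluronan, rose 4.16-fold, Cbr2, a carbonyl reductase, rose 3.96-fold, and Smoc1, a secreted calcium-binding modulator of BMP signals, rose from 6.65 ± 0.709 to 20.02 ± 6.67 CPM (mean ± SD, n = 3 each). Foxd1 (adjusted p = 0.0523) lost the call with only the 6 libraries fitted.

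**Figure D1:**
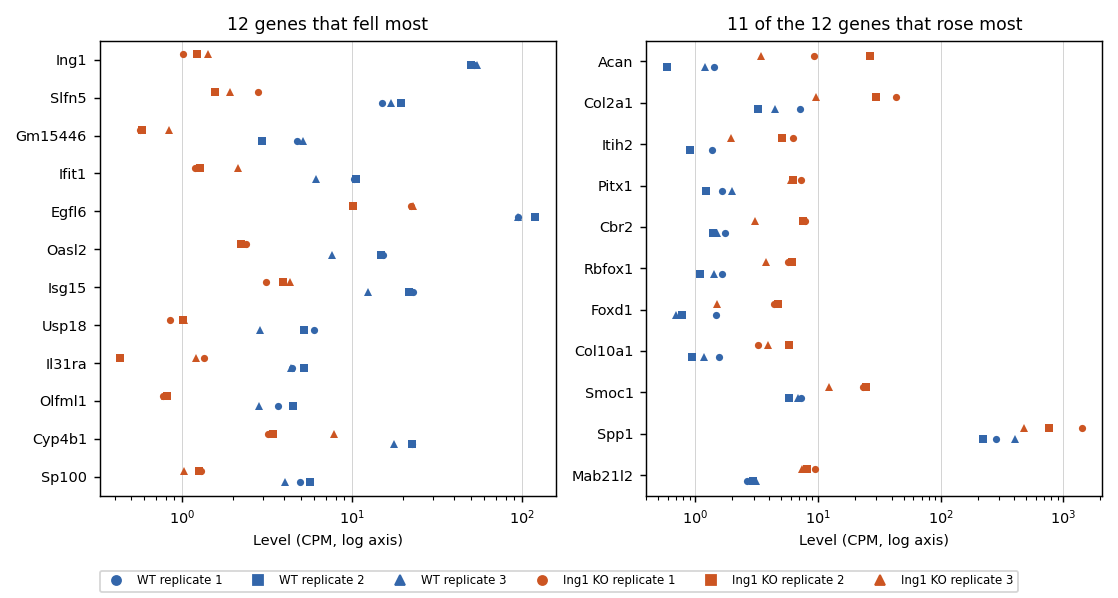
CPM on a log axis for the 12 genes that fell most and 11 of the 12 that rose most in Ing1 KO among called genes with a mean of at least 2 CPM, with 1 point per library (blue WT, orange Ing1 KO, marker shape for the replicate). Groups do not overlap in any of these genes, which the choice of genes required, and Acan spans 3.45 to 26.7 CPM within Ing1 KO while Ing1 spans 1.01 to 1.42 CPM.

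Among genes with the highest CPM of those changed at least 1.5-fold, secreted and surface proteins fell and adhesion and cytoskeletal proteins rose. Ccn3, a matricellular protein that restrains growth, had 894, 982 and 887 CPM in the WT and 259, 206 and 256 CPM in Ing1 KO (log2 fold change -1.94, SE 0.15, adjusted p = 9.02e-05 in edgeR). Timp3, an inhibitor of metalloproteinases held in the matrix, fell from 929 ± 45.2 to 499 ± 96.7 CPM, and Pdgfra, the receptor for platelet-derived growth factor that marks fibroblasts, fell from 716 ± 68.7 to 412 ± 79.3 CPM (mean ± SD, n = 3 each). Aspn, a proteoglycan, fell 1.8-fold, Marcks, a substrate of protein kinase C that binds actin, fell 1.65-fold, and Gas6, the ligand of Axl family receptors, fell 1.76-fold. Itga5, the integrin subunit that binds fibronectin, had 361, 364 and 408 CPM in the WT and 611, 665 and 569 CPM in Ing1 KO (log2 fold change 0.70, SE 0.09, adjusted p = 0.000351 in edgeR). Plec, a linker between cytoskeletal filaments, rose 1.53-fold, Actg2, a smooth muscle actin, rose 2.04-fold, and Fam198b, a Golgi protein, rose 1.55-fold.

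Pathways were followed with 42 gene lists. A list is described by how many tested members were called higher or lower, read beside the shares over all genes tested (12.1% and 11.4%), and by its median log2 fold change, which was -0.0026 over all genes tested. Lists with the largest share of lower members were small leucine-rich proteoglycans and interferon effectors, and those with the largest share of higher members were enzymes of sterol synthesis, of fatty acid synthesis and contractile genes.

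**Figure D2:**
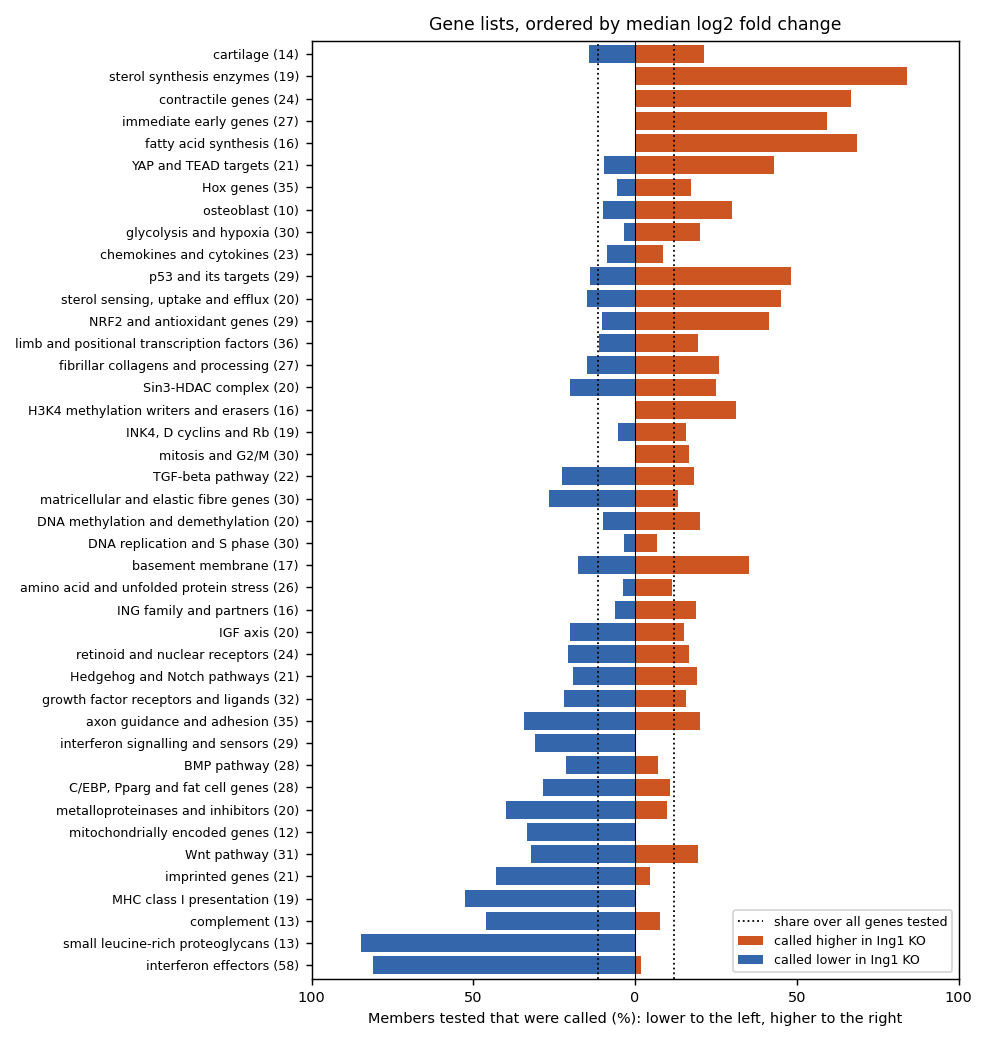
Share of tested members called higher (orange, to the right) and lower (blue, to the left) in Ing1 KO for each of 42 gene lists, with the number of members tested in parentheses and dotted lines at the share over all genes tested. The bar of interferon effectors reaches 47 of 58 members to the left, and that of sterol synthesis enzymes 16 of 19 to the right.

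Genes of the complexes that Ing1 works with changed by small amounts. Of 20 Sin3-HDAC genes, 5 were higher and 4 lower, and Ing1 itself is among the lower. Sin3a, the scaffold of the complex, had 67.5, 68.4 and 67.2 CPM in the WT and 77.7, 77.2 and 80.6 CPM in Ing1 KO (log2 fold change 0.21, SE 0.04, adjusted p = 0.00297 in edgeR). Its partners Sap130, Brms1 and Suds3 rose by 0.23, 0.28 and 0.19 on the log2 scale. The count of lower members was 1 with WT replicate 3 or Ing1 KO replicate 2 left out and 2 with WT replicate 2 left out. Of 16 other ING family genes and partners 3 were higher and 1 lower, or 25% called, beside 23.5% of all genes tested. Ing3, a subunit of an acetyltransferase complex, fell from 13.9 ± 0.162 to 10.7 ± 0.485 CPM (mean ± SD, n = 3 each). Jade1, a partner of acetyltransferases of the HBO1 type, rose from 70.8 ± 4.65 to 99.4 ± 3.75 CPM. The higher count there was 1 with WT replicate 2 or 3 or Ing1 KO replicate 1 or 2 left out, and the lower count 2 with Ing1 KO replicate 1 left out and 3 with Ing1 KO replicate 3 left out.

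A list of 16 genes held writers and erasers of methylation at lysine 4 of histone H3, of which Ing1 reads the trimethylated form. Of these genes 5 were called (31.2%, beside 23.5% of all genes tested), all higher and none by a large step. All of these were writers or subunits of writers (Kmt2b, Kmt2d, Setd1a, Setd1b and Men1). None of the 4 erasers, Kdm1a, Kdm5a, Kdm5b and Kdm5c, was called, but 4 genes are too few to read beside that share. Kmt2d, an enhancer-bound methyltransferase, had 56.2, 46.9 and 50.1 CPM in the WT and 64.9, 61.8 and 65.4 CPM in Ing1 KO (log2 fold change 0.33, SE 0.09, adjusted p = 0.0203 in edgeR), and Men1, a subunit of related complexes, rose by 0.19 on the log2 scale. The count was 0 with WT replicate 2 or 3 or Ing1 KO replicate 3 left out, 1 with Ing1 KO replicate 2 left out and 3 with Ing1 KO replicate 1 left out. Kmt2d lost its call without Ing1 KO replicate 3 (adjusted p = 0.0528), WT replicate 2 (0.087) or WT replicate 3 (0.0694), and Men1 without Ing1 KO replicate 2 (adjusted p = 0.139), Ing1 KO replicate 3 (0.0751), WT replicate 2 (0.0956) or WT replicate 3 (0.1456). Men1 (adjusted p = 0.1046) lost the call with only the 6 libraries fitted. Of 20 genes of DNA methylation and demethylation, 4 rose and 2 fell (30% called, beside 23.5% of all genes tested). Tet1, an enzyme that oxidises methylcytosine, had 18.2, 18.5 and 20.5 CPM in the WT and 15.48, 13.1 and 14.03 CPM in Ing1 KO (log2 fold change -0.43, SE 0.08, adjusted p = 0.00225 in edgeR), and its relative Tet3 had 66.8, 62.98 and 64.8 CPM in the WT and 73.3, 74.8 and 74.4 CPM in Ing1 KO (log2 fold change 0.19, SE 0.04, adjusted p = 0.00276 in edgeR), so these enzymes moved in opposite directions. Higher members numbered 2 with WT replicate 3 or Ing1 KO replicate 2 left out, and the lower count 1 with WT replicate 2 or Ing1 KO replicate 2 left out.

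Interferon acts on its genes mainly through a complex with Stat2 and Irf9 that binds the interferon-stimulated response element, whose core is GAAA, any 2 bases and GAAA again. That core, on either strand, was looked for in RefSeq promoter windows of the GRCm38.p6 assembly, from 250 bases before to 50 after the start of a gene, and 3.44% of all 32851 windows held it. Only 45 of the 58 interferon effectors tested (77.6%) matched a window, under the 80% that a comparison of shares would need, so no comparison between groups of genes is made. Matches were present in 23 of these 45. This counts genes with a match in any of their windows, while the 3.44% counts windows, so these are unlike measures. Effectors that were not called, such as Rsad2 and Irgm1, held the core too. The 6 stretches that follow are examples from effectors that were called lower and held the core. They were chosen after the values were seen, Bst2 for its promoter, and other matches, such as that of Gbp7, are not shown. Each is the gene's own strand, 5′ to 3′, with the core or its reverse complement (TTTC, any 2 bases, TTTC) in capitals, and overlapping cores run together. They lie at chr4:156200835-156200924 (minus strand, Isg15), chr19:34640764-34640853 (plus, Ifit1), chr11:82951907-82951996 (plus, Slfn5), chr11:58199482-58199555 (plus, Igtp), chr3:142559965-142560043 (plus, Gbp3) and chr8:71537547-71537636 (minus, Bst2).
Isg15: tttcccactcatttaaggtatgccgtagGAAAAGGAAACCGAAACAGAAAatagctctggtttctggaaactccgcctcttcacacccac
Ifit1: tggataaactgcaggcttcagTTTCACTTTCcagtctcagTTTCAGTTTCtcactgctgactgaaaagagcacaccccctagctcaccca
Slfn5: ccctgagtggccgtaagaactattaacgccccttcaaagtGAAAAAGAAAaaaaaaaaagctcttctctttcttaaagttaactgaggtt
Igtp: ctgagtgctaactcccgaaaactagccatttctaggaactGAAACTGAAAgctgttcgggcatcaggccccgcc
Gbp3: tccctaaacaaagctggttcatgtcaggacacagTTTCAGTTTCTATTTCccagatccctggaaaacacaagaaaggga
Bst2: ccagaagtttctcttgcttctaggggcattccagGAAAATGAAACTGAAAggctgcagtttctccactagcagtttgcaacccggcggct
Isg15 held 3 overlapping cores and Gbp3 and Bst2 2 each, while Ifit1 held 2 that do not overlap and Slfn5 and Igtp a single core. A match of letters is a description and does not show that a factor binds there.

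Interferon effectors, the genes that carry out the antiviral response, were lower across the list: 47 of 58 fell, 1 rose and 10 were not called, with a median of -1.06 on the log2 scale. Igtp, a GTPase that acts on membranes around parasites, had 7.02, 7.89 and 6.35 CPM in the WT and 2.33, 2.19 and 2.83 CPM in Ing1 KO (log2 fold change -1.53, SE 0.13, adjusted p = 3.06e-05 in edgeR). Gbp3 and Gbp7, guanylate-binding proteins of the same defence, fell 3.33-fold and 2.06-fold. Bst2, the tether that holds budding virus on the cell, is outside the naming rule and was chosen for its promoter; it fell from 30.6 ± 5.83 to 13.8 ± 0.378 CPM (mean ± SD, n = 3 each). The member that rose was Ly6e (log2 fold change 0.20, SE 0.06, adjusted p = 0.033 in edgeR), which was also chosen after its values were seen, and the count of higher members was 0 with WT replicate 1 or 3 or Ing1 KO replicate 1 or 2 left out. Ifit2, a relative of Ifit1 and likewise chosen after its values were seen, changed less than that gene, from 23.3 ± 1.81 to 17.5 ± 0.564 CPM (log2 fold change -0.42). Between 39 and 47 members were lower when any single library was left out, fewest without Ing1 KO replicate 2. The Oas, Ifit, Gbp, Slfn and H2 families hold near-identical copies, so counts of single members are uncertain. Ly6e lost its call without Ing1 KO replicate 1 (adjusted p = 0.1128), Ing1 KO replicate 2 (0.0544), WT replicate 1 (0.0979) or WT replicate 3 (0.0942). Ly6e (adjusted p = 0.0527) lost the call with only the 6 libraries fitted.

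Genes that transmit the interferon signal moved less than the effectors. Of 29, 9 fell and none rose, with a median of -0.091. Irf9, the part of the interferon-activated complex that recognises DNA, had 39.04, 40.6 and 31.04 CPM in the WT and 22.7, 21.9 and 21.6 CPM in Ing1 KO (log2 fold change -0.74, SE 0.09, adjusted p = 0.000344 in edgeR). It was lower in every Ing1 KO library than in any WT library. Jak2, a kinase of cytokine receptors, fell 1.41-fold, and Ddx58 and Ifih1, the cytosolic sensors of viral RNA known as RIG-I and MDA5, fell 1.43-fold and 1.83-fold. Stat2, Irf7 and Dhx58, which were chosen after their values were seen, had log2 fold changes of -0.70, -1.42 and -1.30 (edgeR adjusted p = 0.00402, 0.0042 and 0.00102). The count of higher members was 1 with WT replicate 1 or Ing1 KO replicate 1 or 3 left out.

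Presentation by MHC class I, which interferon raises, was lower in part: 10 of 19 genes fell and none rose (median -0.26). Tap1, a subunit of the peptide transporter, had 19.9, 19.2 and 15.9 CPM in the WT and 12.3, 12.5 and 11.6 CPM in Ing1 KO (log2 fold change -0.60, SE 0.09, adjusted p = 0.00059 in edgeR). Psmb8, a subunit of the immunoproteasome, fell 1.9-fold, and H2-D1, which encodes a classical heavy chain, fell 1.33-fold. Complement genes, many of which fibroblasts secrete, fell in 6 of 13 cases and rose in 1 (median -0.58). C1s1, a protease that starts the classical pathway, had 40.6, 51.3 and 43.9 CPM in the WT and 20.6, 9.66 and 10.7 CPM in Ing1 KO (log2 fold change -1.74, SE 0.25, adjusted p = 0.00172 in edgeR). Its partner C1ra fell 2.91-fold, C2 fell 3.31-fold, and Serping1, the inhibitor of these proteases, fell 1.88-fold. The complement count of higher members was 0 with WT replicate 1, 2 or 3 or Ing1 KO replicate 1 or 2 left out and 2 with Ing1 KO replicate 3 left out.

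Chemokine and cytokine genes were called in 4 of 23 cases (17.4%), beside 23.5% of all genes. Il33, a cytokine released by damaged stromal cells, had 11.6, 14.01 and 16.3 CPM in the WT and 5.3, 3.97 and 4.13 CPM in Ing1 KO (log2 fold change -1.65, SE 0.24, adjusted p = 0.0013 in edgeR), with no overlap. Cxcl5, which attracts neutrophils, fell from 169 ± 35.7 to 78.2 ± 33.3 CPM, Tslp rose from 0.293 ± 0.139 to 0.729 ± 0.242 CPM and Cx3cl1 rose from 21.7 ± 2.15 to 30.4 ± 4.15 CPM (mean ± SD, n = 3 each). Cxcl5 lost its call without Ing1 KO replicate 2 (adjusted p = 0.1462), Ing1 KO replicate 3 (0.1291), WT replicate 1 (0.0722), WT replicate 2 (0.0761) or WT replicate 3 (0.1305), and Tslp without Ing1 KO replicate 1 (adjusted p = 0.0833) or WT replicate 2 (0.106). Cx3cl1 lost its call without Ing1 KO replicate 1 (adjusted p = 0.056), Ing1 KO replicate 2 (0.0772), WT replicate 1 (0.0549) or WT replicate 2 (0.0813). Cxcl5 (adjusted p = 0.0875) and Tslp (0.0543) lost the call with only the 6 libraries fitted. Cxcl5 (adjusted p = 0.084) lost the call without the filter on low counts. Beside these lists, 18 macrophage markers summed to 287 to 491 CPM in the WT and 386 to 682 CPM in Ing1 KO, with none called. The part of these cells in the interferon and complement values was not tested.

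Enzymes that make cholesterol rose together. Of 19 tested, 16 rose and none fell, with a median of 0.48. Sqle, an oxygenating step, had 102, 84.1 and 97.7 CPM in the WT and 120.5, 145 and 137 CPM in Ing1 KO (log2 fold change 0.50, SE 0.08, adjusted p = 0.00095 in edgeR). The groups did not overlap, and the increase was under 1.5-fold. Fdft1 and Fdps, which join the isoprene units, rose 1.42-fold and 1.43-fold, and Mvd, of the mevalonate steps, rose 1.49-fold. Leaving out single libraries left 12 to 15 members higher, fewest without WT replicate 2.

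Genes that sense, take up and release sterols moved in both directions. Srebf2, the transcription factor that drives sterol synthesis, had 189, 158 and 166 CPM in the WT and 226, 241 and 236 CPM in Ing1 KO (log2 fold change 0.46, SE 0.06, adjusted p = 0.000318 in edgeR). Abca1, the pump that exports cholesterol, had 82.3, 90.04 and 82.02 CPM in the WT and 46.9, 40.6 and 57.8 CPM in Ing1 KO (log2 fold change -0.81, SE 0.10, adjusted p = 0.000371 in edgeR). Mylip, a ubiquitin ligase, fell 1.37-fold. Abca1 and Mylip are known to be switched on by liver X receptors when sterols are ample, and the activity of these receptors was not tested. Srebf1, of the same list, rose 1.21-fold (log2 fold change 0.27, SE 0.05, adjusted p = 0.00355 in edgeR). In the whole list 9 of 20 rose and 3 fell, and the higher count was 5 with Ing1 KO replicate 2 left out.

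Genes of fatty acid synthesis rose as well: 11 of 16 rose and none fell (median 0.28). Scd1, which puts the initial double bond into saturated fatty acids, had 108, 105 and 118 CPM in the WT and 176, 175 and 164 CPM in Ing1 KO (log2 fold change 0.64, SE 0.06, adjusted p = 8.34e-05 in edgeR). Fads2, a desaturase of polyunsaturated fatty acids, rose 1.52-fold, and Fasn, the synthase itself, rose 1.44-fold (log2 fold change 0.52, SE 0.09, adjusted p = 0.00202 in edgeR).

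Small leucine-rich proteoglycans, secreted proteins that bind collagen fibrils and set their thickness, were lower in Ing1 KO in 11 of 13 cases, and all 13 log2 fold changes were negative (median -0.85). Dcn, decorin, had 373, 442 and 363 CPM in the WT and 170.4, 108 and 121 CPM in Ing1 KO (log2 fold change -1.56, SE 0.15, adjusted p = 0.000264 in edgeR). Aspn, asporin, had 1472, 1703 and 1730.4 CPM in the WT and 882, 732 and 1111 CPM in Ing1 KO. Bgn, biglycan, had 8578, 8442 and 8138 CPM in the WT and 6841, 6281 and 6974 CPM in Ing1 KO (log2 fold change -0.32, SE 0.05, adjusted p = 0.000912 in edgeR). The groups stood apart in each, and the fall was steep in Dcn and shallow in Bgn. Kera, keratocan, fell 4.51-fold from a low level, and Podn, podocan, fell from 160.1 ± 20.3 to 84.7 ± 10.97 CPM (mean ± SD, n = 3 each).

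The other members of this list are outside the naming rule and were chosen after their values were seen. Lum, lumican, had 121, 161 and 138 CPM in the WT and 81.9, 43.04 and 32.3 CPM in Ing1 KO (log2 fold change -1.42, SE 0.33, adjusted p = 0.0151 in edgeR), so Ing1 KO replicate 1 was the nearest to the WT. Prelp, Fmod, Ogn, Omd and Ecm2 fell with log2 fold changes of -1.13, -1.11, -0.77, -0.69 and -0.61. Chad (log2 fold change -0.24, SE 0.45, adjusted p = 0.752 in edgeR) and Podnl1 (log2 fold change -0.23, SE 0.13, adjusted p = 0.239 in edgeR) were not called. Lum lost its call without Ing1 KO replicate 2 (adjusted p = 0.0689) or WT replicate 2 (0.0568), and Fmod without Ing1 KO replicate 2 (adjusted p = 0.0537). Ogn lost its call without Ing1 KO replicate 2 (adjusted p = 0.1298), Ing1 KO replicate 3 (0.1171), WT replicate 2 (0.1359) or WT replicate 3 (0.0655), and Omd without Ing1 KO replicate 2 (adjusted p = 0.0664) or WT replicate 2 (0.0585). Lum (adjusted p = 0.0591) lost the call with only the 6 libraries fitted. Ogn (adjusted p = 0.08) lost the call without the filter on low counts. The list's count of lower members was 7 with Ing1 KO replicate 2 left out.

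**Figure D3:**
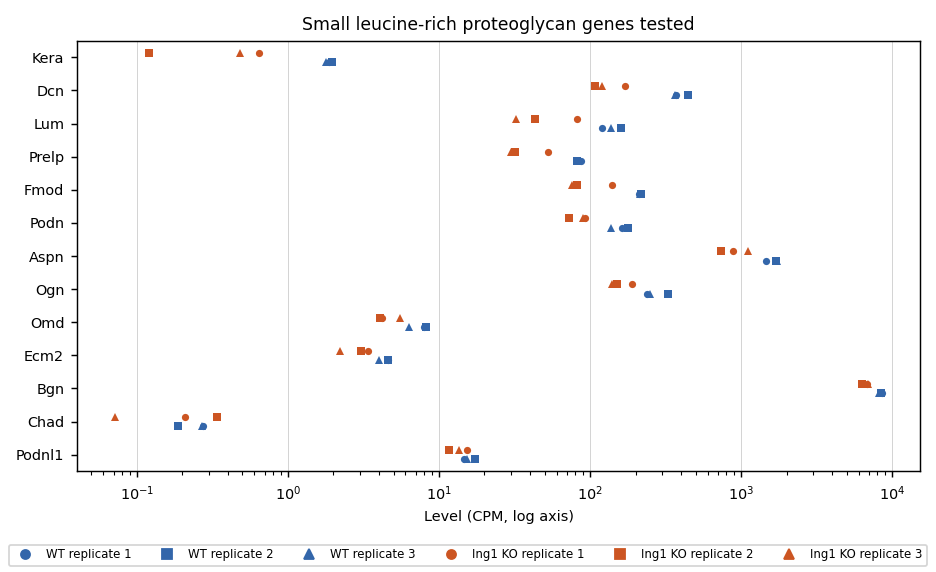
CPM on a log axis of the 13 small leucine-rich proteoglycan genes tested, ordered by fold change, with 1 point per library (blue WT, orange Ing1 KO, marker shape for the replicate). WT points lie to the right of Ing1 KO points in the 11 called genes, with the widest gaps for Kera and Dcn, and Ing1 KO replicate 1 (orange circle) lies closest to the WT for 8 of the 11, Dcn and Lum among them.

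Collagens that form fibrils, and the enzymes that process them, moved in both directions, with 7 of 27 higher and 4 lower (median 0.086). Adamts2, which trims the end of procollagen, had 438, 422 and 423 CPM in the WT and 292, 252 and 318 CPM in Ing1 KO (log2 fold change -0.57, SE 0.07, adjusted p = 0.000351 in edgeR). Loxl3, an enzyme that cross-links collagen, had 239.9, 236 and 261 CPM in the WT and 385, 385 and 411 CPM in Ing1 KO (log2 fold change 0.68, SE 0.09, adjusted p = 0.000685 in edgeR). These enzymes of collagen maturation thus changed in opposite directions. Loxl1 rose 1.24-fold, Pcolce2, an enhancer of procollagen trimming, rose 1.74-fold, and P4ha3, a prolyl hydroxylase subunit, fell 1.32-fold. The higher count was 4 with WT replicate 2 or 3 or Ing1 KO replicate 2 left out, and the lower count 2 with WT replicate 1 or 2 or Ing1 KO replicate 2 or 3 left out.

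Basement membrane genes also split, with 6 of 17 higher and 3 lower. Lama4, a laminin chain of vessels and muscle, had 369, 394 and 361 CPM in the WT and 287, 247 and 260.2 CPM in Ing1 KO (log2 fold change -0.50, SE 0.06, adjusted p = 0.000161 in edgeR). Lama5, a laminin chain common in epithelia, had 19.1, 20.6 and 20.5 CPM in the WT and 54.4, 59.9 and 39.96 CPM in Ing1 KO (log2 fold change 1.35, SE 0.17, adjusted p = 0.000764 in edgeR). Each of these laminin genes had groups that did not overlap. Nid1, which links laminin to collagen IV, rose 1.22-fold, Hspg2, perlecan, rose 1.33-fold, and Agrn, agrin, fell 1.43-fold.

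Of 30 matricellular and elastic fibre genes 4 rose and 8 fell. Ltbp1, which stores latent TGF-beta in the matrix, had 165, 182 and 184 CPM in the WT and 290.03, 297 and 312 CPM in Ing1 KO (log2 fold change 0.76, SE 0.06, adjusted p = 1.02e-05 in edgeR). Fbln1, fibulin 1, fell from 298 ± 33.04 to 169 ± 19.8 CPM, and Postn, periostin, fell from 10793 ± 681 to 7956 ± 498 CPM (mean ± SD, n = 3 each). Fn1, fibronectin, which was chosen after its values were seen, rose from 7706 ± 152 to 10522 ± 571 CPM. Mfap4, an elastic fibre protein chosen in the same way, fell from 515 ± 101 to 223 ± 47.9 CPM (mean ± SD, n = 3 each).

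Metalloproteinases and their inhibitors fell in 8 of 20 cases and rose in 2 (median -0.16). Adamts1 and Adamts15, which cleave proteoglycans, fell 1.55-fold and 2.97-fold, and Reck, a membrane-bound inhibitor, fell 1.58-fold. Mmp10, a stromelysin, rose from 0.546 ± 0.218 to 3.02 ± 0.212 CPM (log2 fold change 2.47, SE 0.46, adjusted p = 0.00326 in edgeR). Higher members numbered 4 with Ing1 KO replicate 3 left out.

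Cartilage genes were called in both directions, although 11 of 14 log2 fold changes were positive and 3 negative (median 0.53). The mean log2 level of the list was 2.172, 1.847 and 1.335 in Ing1 KO, beside 1.283 to 1.436 in the WT. Ing1 KO replicate 3 thus lay within the WT range. Besides Acan, Col2a1 and Col10a1, which rose, Matn4 and Col9a2 fell: Matn4, a matrilin of cartilage and other matrices, had 4.44, 4.49 and 3.22 CPM in the WT and 1.24, 0.747 and 1.51 CPM in Ing1 KO (log2 fold change -1.80, SE 0.25, adjusted p = 0.000512 in edgeR), and Col9a2, a chain of cartilage type IX collagen, had 2.7, 3.34 and 2.35 CPM in the WT and 1.4, 0.409 and 0.696 CPM in Ing1 KO (log2 fold change -1.76, SE 0.33, adjusted p = 0.00275 in edgeR). The other 9 of 14 tested were not called, Sox9, the master regulator of cartilage, among them, which was chosen as the regulator after its values were seen (log2 fold change 0.14, SE 0.20, adjusted p = 0.667 in edgeR). The higher count was 5 with Ing1 KO replicate 3 left out. Of 10 bone-forming genes 3 rose and 1 fell, with Msx2, a homeobox factor, at 2.12-fold higher and Mef2c at 1.25-fold lower. The lower count was 0 with WT replicate 1, 2 or 3 or Ing1 KO replicate 2 or 3 left out. Mef2c lost its call without Ing1 KO replicate 2 (adjusted p = 0.1456), Ing1 KO replicate 3 (0.0733), WT replicate 1 (0.0685), WT replicate 2 (0.0842) or WT replicate 3 (0.1111). Mef2c (adjusted p = 0.0543) lost the call with only the 6 libraries fitted. In this list Ing1 KO replicate 1 stood apart: its mean log2 level was 2.38, beside 1.99 and 1.96 in the other Ing1 KO libraries and 1.92 to 2.03 in the WT. Ibsp, which encodes a sialoprotein of bone and did not pass the filter on low counts, had 1251 counts in that library, 0 in the other Ing1 KO libraries and 0, 0 and 3 in the WT. Alpl, a phosphatase of mineralising cells, had 0.0817, 0.214 and 0.331 CPM in the WT and 2.17, 0.0963 and 0.024 CPM in Ing1 KO and was not called. Both were chosen after their values were seen. Spp1 was also highest in that library, and the part of that library's bone genes in the Spp1 value was not tested.

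Transcription factors of limb and body position were called in 11 of 36 cases, 7 higher and 4 lower. Twist1, a mesenchymal factor, had 67.7, 64.8 and 58.2 CPM in the WT and 39.3, 46.1 and 44.3 CPM in Ing1 KO (log2 fold change -0.56, SE 0.08, adjusted p = 0.00042 in edgeR). Tbx15, of skin and skeleton, fell 1.34-fold, and Meis1, a partner of Hox proteins, fell 1.17-fold. Barx1, a factor of stomach and jaw mesenchyme, had 0.245, 0.16 and 0.211 CPM in the WT and 2.02, 1.81 and 0.672 CPM in Ing1 KO (log2 fold change 2.85, SE 0.54, adjusted p = 0.00315 in edgeR), a change from counts near 0. Higher members numbered 3 with WT replicate 2 left out and 4 with WT replicate 3 or Ing1 KO replicate 2 left out.

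Among 35 Hox genes, which mark position along the body axis, 6 rose and 2 fell (median 0.21). That is 22.9% called, beside 23.5% of all genes tested. Some genes of the HoxA cluster were among those that rose. Hoxa5 had 3.38, 2.54 and 3.88 CPM in the WT and 8.79, 9.42 and 4.37 CPM in Ing1 KO (log2 fold change 1.21, SE 0.26, adjusted p = 0.00746 in edgeR). Hoxa3, Hoxa6 and Hoxa7 rose 2.26-fold, 1.96-fold and 1.62-fold. Hoxd8 had 34.01, 36.3 and 29.96 CPM in the WT and 15.8, 12.9 and 18.8 CPM in Ing1 KO (log2 fold change -1.08, SE 0.14, adjusted p = 0.000527 in edgeR) and was the Hox gene with the smallest adjusted p. Hoxa3 lost its call without Ing1 KO replicate 1 (adjusted p = 0.0529), Ing1 KO replicate 2 (0.0747) or WT replicate 2 (0.0811), and Hoxa7 without WT replicate 2 (adjusted p = 0.0514). Hoxa3 (adjusted p = 0.085) lost the call with only the 6 libraries fitted. Hoxa3 (adjusted p = 0.05) lost the call without the filter on low counts. The higher count was 3 with WT replicate 2 or Ing1 KO replicate 1 left out, and the lower count 1 with WT replicate 2 or Ing1 KO replicate 2 left out and 4 with WT replicate 3 left out. The labels do not name the part of the embryo that was used, and HoxA genes often overlap transcripts of the other strand.

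Genes of the Wnt pathway were called in 16 of 31 cases, 10 lower and 6 higher (median -0.20). Lgr5, a receptor for R-spondins, which strengthen Wnt signals, had 366, 331 and 333 CPM in the WT and 115, 72.9 and 141 CPM in Ing1 KO (log2 fold change -1.65, SE 0.20, adjusted p = 0.000881 in edgeR). Nkd1, an intracellular inhibitor that Wnt itself induces, had 21.9, 19.4 and 18.3 CPM in the WT and 8.87, 8.43 and 10.8 CPM in Ing1 KO (log2 fold change -1.08, SE 0.11, adjusted p = 8.34e-05 in edgeR). Sfrp1, a secreted inhibitor that was chosen after its values were seen, had 414, 474 and 413 CPM in the WT and 213, 89.3 and 84.4 CPM in Ing1 KO (log2 fold change -1.75, SE 0.35, adjusted p = 0.00771 in edgeR). Lgr5 and Sfrp1, of opposite known roles, fell by similar steps. Sfrp2, of the same kind and chosen in the same way, fell from 25.005 ± 1.71 to 6.62 ± 4.99 CPM (mean ± SD, n = 3 each), and Wnt10b, a ligand, rose 2.9-fold from a low level. Sfrp2 lost its call without Ing1 KO replicate 2 (adjusted p = 0.0675) or Ing1 KO replicate 3 (0.0529). Sfrp2 (adjusted p = 0.0594) lost the call with only the 6 libraries fitted. Higher members numbered 2 with WT replicate 2 left out, and the lower count 6 with Ing1 KO replicate 2 left out.

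Several receptors of the TGF-beta family fell while a ligand rose. Tgfbr2, the receptor that binds TGF-beta, had 431, 428 and 419 CPM in the WT and 343, 274 and 299.9 CPM in Ing1 KO (log2 fold change -0.48, SE 0.07, adjusted p = 0.000497 in edgeR). Tgfbr1, its signalling partner, fell 1.3-fold, and Tgfbr3, betaglycan, fell 1.89-fold. Tgfb2, a ligand, had 27.9, 26.98 and 28.7 CPM in the WT and 41.9, 45.5 and 36.9 CPM in Ing1 KO (log2 fold change 0.57, SE 0.09, adjusted p = 0.00133 in edgeR). In the TGF-beta list 4 of 22 rose and 5 fell, and the higher count was 2 with WT replicate 1 or 2 or Ing1 KO replicate 2 or 3 left out. In the BMP list 2 of 28 rose and 6 fell, or 28.6% called, beside 23.5% of all genes tested. Fstl1, a secreted BMP antagonist, fell 1.24-fold, and Bmpr1a, a receptor, fell 1.16-fold. The BMP counts were 0 with WT replicate 2 or Ing1 KO replicate 2 left out, 1 with WT replicate 1 left out and 4 with Ing1 KO replicate 3 left out for higher members, and 3 with WT replicate 1 or Ing1 KO replicate 2 left out for lower members.

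Hedgehog and Notch genes were called in 8 of 21 cases, as many higher as lower. The co-receptors Cdon, Boc and Gas1, which hold Hedgehog ligands on the cell, fell 1.39-fold, 1.2-fold and 1.56-fold. Notch1, a receptor, had 28.1, 24.3 and 23.6 CPM in the WT and 30.99, 36.2 and 37.4 CPM in Ing1 KO (log2 fold change 0.46, SE 0.08, adjusted p = 0.00203 in edgeR), and Hey1, a target of Notch, rose 1.95-fold.

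Growth factor ligands and receptors were called in 12 of 32 cases, 5 higher and 7 lower. Kitl, the ligand of the Kit receptor, had 48.4, 44.2 and 45.2 CPM in the WT and 21.97, 15.7 and 18.6 CPM in Ing1 KO (log2 fold change -1.29, SE 0.15, adjusted p = 0.000429 in edgeR). Hbegf, a ligand of the EGF receptor, had 16.6, 16.3 and 17.2 CPM in the WT and 27.4, 35.99 and 31.97 CPM in Ing1 KO (log2 fold change 0.93, SE 0.12, adjusted p = 0.000481 in edgeR). The first was lower and the second higher in every Ing1 KO library. Fgf21, a metabolic hormone, fell 2.04-fold, and Dusp6, a phosphatase induced by ERK signals, rose 1.53-fold. The higher count was 2 with Ing1 KO replicate 2 left out and 3 with WT replicate 1 or 2 left out.

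Insulin-like growth factor genes were called in 7 of 20 cases (3 higher, 4 lower). Igf1, the growth factor itself, had 191, 253 and 179.6 CPM in the WT and 68.2, 52.9 and 117 CPM in Ing1 KO (log2 fold change -1.39, SE 0.27, adjusted p = 0.00678 in edgeR), and Igfbp3, which binds it outside the cell, had 325, 311 and 286 CPM in the WT and 101, 75.1 and 116 CPM in Ing1 KO (log2 fold change -1.66, SE 0.27, adjusted p = 0.00326 in edgeR). The ligand and its carrier were thus both lower. Igf1r, the receptor, rose 1.23-fold, and Grb14, an inhibitor of insulin signalling, rose 1.96-fold. In a list of imprinted genes, which are expressed from the copy of 1 parent and of which many regulate fetal growth, members fell in 9 of 21 cases and rose in 1 (median -0.25). Plagl1, a transcription factor, fell from 175 ± 15.8 to 80.2 ± 12.4 CPM, and Cdkn1c, an inhibitor of the cell cycle, fell from 138 ± 18.2 to 63.9 ± 12.2 CPM (mean ± SD, n = 3 each). The members that fell include the X-linked Gpc3, which is not itself an imprinted gene. The lower count was 5 with Ing1 KO replicate 2 left out.

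Contractile genes, most of them targets of serum response factor, rose in 16 of 24 cases and none fell (median 0.34). Cnn1, calponin, had 200.1, 195 and 214 CPM in the WT and 334, 398 and 336 CPM in Ing1 KO (log2 fold change 0.81, SE 0.08, adjusted p = 0.000116 in edgeR). Tpm1, tropomyosin, had 1392, 1414 and 1434 CPM in the WT and 1883, 2219 and 2042 CPM in Ing1 KO (log2 fold change 0.54, SE 0.06, adjusted p = 0.000116 in edgeR). Neither gene had overlapping groups. Tpm2 rose 1.38-fold, Actn1, an actin cross-linker, rose 1.3-fold, and Myh10, a non-muscle myosin, rose 1.35-fold. Acta2, the smooth muscle actin that defines myofibroblasts and was chosen after its values were seen, rose from 4605 ± 246 to 5656 ± 628 CPM (mean ± SD, n = 3 each). Acta2 lost its call without Ing1 KO replicate 2 (adjusted p = 0.052). Without single libraries, 14 to 17 members were higher. Skeletal muscle markers summed to 57.2 to 59.8 CPM in the WT and 84.7 to 134.5 CPM in Ing1 KO, nearly all of it Des and Acta1, which smooth muscle and fibroblasts also express, while Pax7 was at 0 and Myod1 and Myf5 stood under 0.1 CPM.

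Genes that YAP and TEAD factors switch on in stretched or spread cells rose in 9 of 21 cases and fell in 2 (median 0.21). Crim1, a membrane-bound antagonist of BMP, had 96.9, 94.2 and 100.04 CPM in the WT and 119, 164 and 150.1 CPM in Ing1 KO (log2 fold change 0.57, SE 0.11, adjusted p = 0.00339 in edgeR). Axl, a receptor kinase, rose 1.18-fold, Nuak2, a kinase, rose 1.57-fold, and Nt5e, the surface enzyme CD73, fell 2.37-fold. Higher members numbered 5 with WT replicate 2 left out. Immediate early genes, which growth signals induce within minutes, rose in 16 of 27 cases and none fell (median 0.34). Jun, a subunit of AP-1, had 62.4, 55.2 and 60.4 CPM in the WT and 77.5, 81.03 and 73.97 CPM in Ing1 KO (log2 fold change 0.39, SE 0.06, adjusted p = 0.00113 in edgeR). Dusp5, a phosphatase of ERK, rose 1.76-fold, and Myc, the growth regulator chosen after its values were seen, rose 1.4-fold. The higher count was 10 with WT replicate 2 left out.

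Genes of the p53 response, which halts or kills damaged cells, rose in 14 of 29 cases and fell in 4 (median 0.15). Pmaip1, the death-promoting protein Noxa, had 33.4, 32.97 and 37.5 CPM in the WT and 51.5, 66.2 and 55.7 CPM in Ing1 KO (log2 fold change 0.74, SE 0.09, adjusted p = 0.000334 in edgeR). Mdm2, the ligase that degrades p53, had 107, 97.6 and 109 CPM in the WT and 126, 127 and 130.004 CPM in Ing1 KO (log2 fold change 0.29, SE 0.05, adjusted p = 0.00107 in edgeR). Both were higher in every Ing1 KO library, by modest amounts. Cdkn1a, the inhibitor p21 that was chosen after its values were seen, rose from 367 ± 31.4 to 484 ± 38.97 CPM, and Fas, a death receptor chosen in the same way, fell from 18.7 ± 1.04 to 14.2 ± 0.984 CPM (mean ± SD, n = 3 each). Of 19 genes of the INK4 and Rb pathway 3 rose and 1 fell, or 21.1% called, beside 23.5% of all genes tested. Cdkn2a, which encodes p16 and p19Arf, had 43.3, 31.9 and 34.6 CPM in the WT and 52.2, 60.7 and 53.6 CPM in Ing1 KO (log2 fold change 0.60, SE 0.10, adjusted p = 0.00138 in edgeR). The higher count there was 1 with WT replicate 3 or Ing1 KO replicate 2 left out, and the lower count 0 with WT replicate 2 or Ing1 KO replicate 2 or 3 left out and 2 with WT replicate 1 or Ing1 KO replicate 1 left out.

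Cell cycle genes were called in 10% (replication) and 16.7% (mitosis) of cases, beside 23.5% of all genes. Of 30 genes of DNA replication 2 rose and 1 fell, among them Rrm1, a subunit of ribonucleotide reductase, at 1.18-fold lower. Of 30 genes of mitosis 5 rose and none fell: Plk1, a mitotic kinase, had 22.7, 24.4 and 21.6 CPM in the WT and 29.3, 35.5 and 28.6 CPM in Ing1 KO (log2 fold change 0.44, SE 0.08, adjusted p = 0.00252 in edgeR). The counts of higher members were 0 with WT replicate 3 or Ing1 KO replicate 2 left out and 1 with WT replicate 1 left out for replication, and 2 with WT replicate 1 or Ing1 KO replicate 2 left out, 3 with WT replicate 3 left out and 8 with WT replicate 2 left out for mitosis. The counts of lower members were 2 with Ing1 KO replicate 1 left out and 3 with WT replicate 1 left out for replication, and 1 with WT replicate 1 left out for mitosis.

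Genes of fat cell formation fell in 8 of 28 cases and rose in 3. Lpl, the lipase that frees fatty acids from lipoproteins, had 211, 239 and 204 CPM in the WT and 64.1, 42.4 and 81.4 CPM in Ing1 KO (log2 fold change -1.80, SE 0.20, adjusted p = 0.000551 in edgeR). Cebpa, a transcription factor that commits cells to the fat lineage, had 9.47, 10.5 and 8.45 CPM in the WT and 5.94, 5.25 and 4.61 CPM in Ing1 KO (log2 fold change -0.85, SE 0.12, adjusted p = 0.000436 in edgeR). Ebf1, an earlier factor of that lineage, fell 1.47-fold. Pparg, the central regulator, and Dlk1, a surface protein of preadipocytes that opposes it, were chosen after their values were seen and fell 1.49-fold and 2.35-fold. Pparg lost its call without Ing1 KO replicate 2 (adjusted p = 0.0569), Ing1 KO replicate 3 (0.0909), WT replicate 2 (0.0741) or WT replicate 3 (0.0793), and Dlk1 without Ing1 KO replicate 1 (adjusted p = 0.069), Ing1 KO replicate 2 (0.105), Ing1 KO replicate 3 (0.056), WT replicate 1 (0.0709) or WT replicate 2 (0.0859). Pparg (adjusted p = 0.0633) lost the call with only the 6 libraries fitted. Dlk1 (adjusted p = 0.051) lost the call without the filter on low counts. Higher members numbered 1 with WT replicate 2 or Ing1 KO replicate 2 left out.

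Antioxidant genes under Nfe2l2 rose in 12 of 29 cases and fell in 3 (median 0.13), with Tkt, transketolase, at 1.28-fold and Txnrd1, thioredoxin reductase, at 1.22-fold higher. That higher count was 5 with Ing1 KO replicate 2 left out and 7 with WT replicate 2 or 3 left out, and the lower count 0 with WT replicate 1 or 3 or Ing1 KO replicate 2 or 3 left out. Of 30 glycolysis and hypoxia genes 6 rose, with Pkm, pyruvate kinase, at 1.28-fold, and 1 fell. That is 23.3% called, beside 23.5% of all genes tested. This lower count was 0 with WT replicate 1 or 2 or Ing1 KO replicate 1, 2 or 3 left out. Of 12 mitochondrially encoded genes 4 fell and all 12 log2 fold changes were negative (median -0.18), with mt-Co2, a subunit of cytochrome oxidase, going from 1025 ± 20.9 to 861 ± 54.1 CPM (mean ± SD, n = 3 each). That count was 2 with WT replicate 3 or Ing1 KO replicate 2 left out. Genes of amino acid and unfolded protein stress were called in 4 of 26 cases (15.4%, beside 23.5% of all genes tested). Psat1 and Shmt2, of serine and glycine synthesis, were 1.29-fold and 1.33-fold higher. The higher count there was 6 with Ing1 KO replicate 1 left out, and the lower count 0 with WT replicate 3 or Ing1 KO replicate 3 left out and 2 with Ing1 KO replicate 2 left out.

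Guidance and adhesion genes, known from growing axons and also used by mesenchyme, were called in 19 of 35 cases, 12 lower and 7 higher. Epha4, an ephrin receptor, had 103, 98.04 and 99.2 CPM in the WT and 50.7, 55.1 and 62.5 CPM in Ing1 KO (log2 fold change -0.83, SE 0.06, adjusted p = 1.02e-05 in edgeR). Nrp1, a co-receptor for semaphorins and VEGF, had 242, 238 and 265 CPM in the WT and 321, 329.6 and 322 CPM in Ing1 KO (log2 fold change 0.39, SE 0.04, adjusted p = 0.000162 in edgeR). Both had little spread within a group. Sema3c and Sema3b, secreted semaphorins, fell 1.61-fold and 1.53-fold, while Sema3e rose 1.96-fold. The higher count was 2 with WT replicate 2 or Ing1 KO replicate 2 left out and 3 with WT replicate 3 left out, and the lower count 7 with WT replicate 1 or Ing1 KO replicate 1 or 2 left out.

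Nuclear receptors and retinoid genes were called in 9 of 24 cases, 4 higher and 5 lower. Rara, a receptor for retinoic acid, rose 1.34-fold, and Crabp1, which binds retinoic acid in the cytoplasm, rose from 307 ± 18.6 to 447 ± 29.9 CPM (mean ± SD, n = 3 each). Thra and Thrb, the thyroid hormone receptors, fell 1.3-fold and 1.87-fold, and Rxra, the shared partner of these receptors, fell 1.2-fold. Higher members numbered 7 with Ing1 KO replicate 3 left out, and the lower count 3 with WT replicate 2 left out.

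Markers of other cell types were low next to those of fibroblasts. Mesothelial markers summed to 6.85 to 11.2 CPM in the WT and 13.4 to 14.8 CPM in Ing1 KO, and epithelial markers to 5.54 to 7.25 and 8.47 to 13.1 CPM, with no overlap of the groups. Msln, mesothelin, rose from 0.493 ± 0.434 to 1.88 ± 0.504 CPM, and Krt7, a keratin, rose from 1.68 ± 0.294 to 4.26 ± 1.81 CPM (mean ± SD, n = 3 each), while Epcam, which defines most epithelia, stood under 0.1 CPM. Msln lost its call without WT replicate 2 (adjusted p = 0.0636). Endothelial markers summed to 155 to 192 CPM in the WT and 113 to 198 CPM in Ing1 KO, most of it Flt1, and Tie1 and Cldn5 were at 0. Markers of Schwann cells and neurons summed to 127 to 139 CPM in the WT and 126 to 153 CPM in Ing1 KO, most of it Tubb3. Of 9 such genes tested, 1 was called higher and 2 lower (median log2 fold change -0.70). Markers of blood summed to 6.83 to 7.70 CPM in the WT and 7.84 to 11.2 CPM in Ing1 KO. Both globin genes, Hba-a1 and Hbb-bs, were at 0, although reads of their near-identical copies may not have been counted. The part of any such cells in the results above was not tested.

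Genes next to Ing1 on chromosome 8 were called about as often as others. Of the 10 nearest tested genes on each side, 4 of 20 (20%) were called, beside 23.5% of all genes tested. Col4a1 and Col4a2, a pair that encodes the main chains of collagen IV, rose 1.29-fold and 1.27-fold, Mcf2l, an activator of small GTPases, rose 2.54-fold, and Tubgcp3, of the complex that nucleates microtubules, fell 1.2-fold. Col4a1 lost its call without Ing1 KO replicate 2 (adjusted p = 0.0515). The genes on either side of Ing1, Cars2 and Ankrd10, were not called (edgeR adjusted p = 0.463 and 0.29). Over the 20 chromosomes with at least 100 tested genes, 19.7% to 28.9% of genes were called.

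Ing1 was also lost in the libraries labelled DKO, which were compared with those labelled Gadd45a KO, 6 libraries that the comparison above does not include. There Ing1 fell with a log2 fold change of -5.53 ± 0.10 SE (adjusted p = 1.02e-12 in edgeR), and 3988 genes were called (26.4%), 2387 higher (15.8%) and 1601 lower (10.6%). Of the genes called higher in Ing1 KO against the WT, 463 were called higher there as well, which is 25.3% of the former and 19.4% of the latter list. For lower genes the overlap was 510, or 29.7% and 31.9%. Calls in opposite directions numbered 80 and 111. A direct test of the difference between the effects called 2687 genes.

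Few interferon effectors were lower in that background: 3 of 58 were called lower and 28 higher. Isg15 had a log2 fold change of 1.20 ± 0.26 SE (adjusted p = 0.00802 in edgeR) in the libraries labelled DKO against those labelled Gadd45a KO, and the difference between the effects was 3.52 ± 0.38 SE (adjusted p = 0.00125 in edgeR). For Usp18 the values were 1.08 ± 0.26 SE (adjusted p = 0.00977 in edgeR) and 3.35 ± 0.39 SE (adjusted p = 0.000787 in edgeR). Slfn5 fell in both, less in the second at -0.99 ± 0.17 SE (adjusted p = 0.00134 in edgeR), with a difference of 2.04 ± 0.25 SE (adjusted p = 0.00101 in edgeR). Over the whole list of effectors the median was -1.06 in Ing1 KO and 0.43 there. The mean log2 level of this list was 3.09 to 3.41 in the WT and 2.38 to 2.47 in Ing1 KO. In the libraries labelled Gadd45a KO it was 2.97, 2.87 and 2.94, all below the WT. In those labelled DKO it was 3.21, 3.21 and 3.54. The higher calls of labelled DKO against labelled Gadd45a KO thus start from a list level below the WT. In that comparison all 18 macrophage markers were called higher and summed to 2390 to 2977 CPM in the libraries labelled DKO, beside 153 to 599 CPM in those labelled Gadd45a KO, and 29 of 30 mitosis genes were called higher. The part of these in the interferon values was not tested.

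Several other lists were set beside the same values in that background. Small leucine-rich proteoglycans fell there too, in 7 of 13 cases with a median of -0.32. No sterol synthesis enzyme was called there (median 0.043), and 8 of 24 contractile genes were called higher (median 0.15). Of genes that sense, take up and release sterols, 8 of 20 were called higher there and 1 lower. Abca1, which fell in Ing1 KO, was among the higher at 0.41 ± 0.10 SE (adjusted p = 0.00865 in edgeR). Of the fatty acid synthesis list 5 of 16 were called higher there and none lower (median 0.061), and of immediate early genes 8 of 27 were called higher and 2 lower (median 0.11). MHC class I presentation had 4 of 19 genes higher and 2 lower (median 0.077), and complement 1 of 13 higher and 4 lower (median -0.37). Mean log2 levels of the proteoglycan list, over the members tested, ran from 6.03 to 6.17 in the WT and from 5.06 to 5.47 in Ing1 KO, and groups did not overlap there or in the other background. Sterol enzyme levels ran from 5.05 to 5.30 in the WT and from 5.47 to 5.63 in Ing1 KO.

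**Figure D4:**
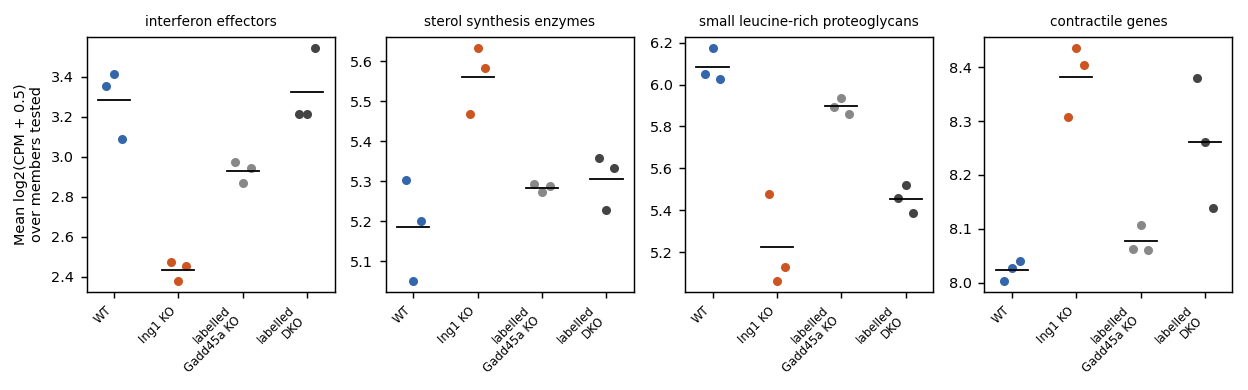
Mean log2(CPM + 0.5) over the tested members of 4 lists in each of the 12 libraries, with 1 point per library and a bar at the group mean; the vertical axes differ between panels and do not start at 0. Ing1 KO lies below the WT for interferon effectors and small leucine-rich proteoglycans and above it for sterol synthesis enzymes and contractile genes, and the libraries labelled DKO lie below those labelled Gadd45a KO in the proteoglycan panel only.

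Of the 12 genes that rose most, 10 had a positive log2 fold change in the other background, 3 were called higher there, and the difference between the effects was called for 5. Of the 12 that fell most, 6 had a negative one, 3 were called lower, 3 were called higher, and the difference was called for 10. Mab21l2 rose in both, with 1.31 ± 0.22 SE (adjusted p = 0.00118 in edgeR) in the second, and Cyp4b1 fell in both, with -1.27 ± 0.28 SE (adjusted p = 0.00929 in edgeR). Rbfox1, which rose in Ing1 KO, had -0.34 ± 0.24 SE (adjusted p = 0.325 in edgeR) there, a difference of -2.24 ± 0.33 SE (adjusted p = 0.00198 in edgeR).

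**Figure D5:**
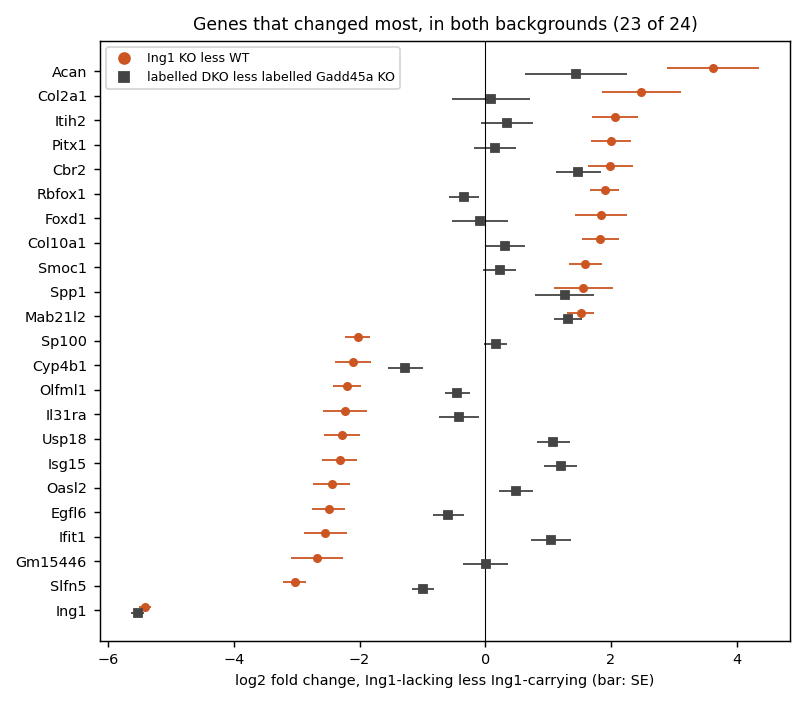
Log2 fold changes with SE bars of 23 of the 24 genes that changed most in Ing1 KO against the WT (orange circles) and of the same genes in the libraries labelled DKO against those labelled Gadd45a KO (dark squares). Ing1 has nearly the same value in both, while Isg15, Ifit1 and Usp18 lie on opposite sides of 0.

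Reads from these libraries carry no strand, so a gene and an antisense partner share their counts. Among the genes given with values above, this touches Gadd45a, Slfn5, Usp18, Gm15446, Col10a1, Pitx1, Mab21l2, Timp3, Pdgfra, Aspn, Gas6, Fam198b, Sin3a, Jade1, Irf7, Dhx58, Tap1, Psmb8, C1s1, C2, Fdft1, Srebf1, Prelp, Loxl3, Nid1, Fn1, Mfap4, Matn4, Meis1, Hoxa3, Hoxa7, Sfrp2, Tgfb2, Bmpr1a, Gas1, Notch1, Plagl1, Cdkn1c, Actn1, Crim1, Jun, Dusp5, Cdkn1a, Plk1, Cebpa, Shmt2, Thra, Krt7, Col4a1, Col4a2, Mcf2l, Tubgcp3 and Cars2.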

How the data were processed

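RNA of 12 libraries was read for 51 cycles from 1 end with a strandless kit, per the labels' protocols. The authors deposited read counts per Ensembl gene, 1 table per library, with 37991 identifiers and 5 summary lines that were left out (23.89% to 24.73% of reads in the 6 libraries were assigned to no gene). Mapping used TopHat2 2.0.9, Bowtie2 2.1.0 and the mm9 build, and counting HTSeq 0.5.4, per the submitters' processing notes; the sources used here do not give the strand setting. Symbols came from a GENCODE annotation of another build (32919 identifiers), so no coordinates from it are given.

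Groups were tested in 1 model of 12 libraries with edgeR 4.0.16 (R 4.3.3): TMM scaling, filterByExpr, robust quasi-likelihood tests, two-sided, 8 residual degrees of freedom, called at a Benjamini-Hochberg adjusted p under 0.05. CPM were computed from the deposited counts with TMM-scaled sizes. An exact permutation test of 3 against 3 was not used, since it cannot fall under 0.1. On simulated counts for this comparison 200 of 15098 genes were changed, all drawn from genes that averaged at least 1 CPM. Of the 2-fold changes 92% were recovered and of the 1.5-fold changes 77%, and 6.11% of calls were false. Recovery of changes in genes below that level was not simulated. DESeq2 1.42.0, RLE scaling, other filters, the 6 libraries alone, a replicate block and leaving out each library were the alternatives.

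Genes named are Ing1 and Gadd45a, the 12 largest increases and 12 largest decreases over called genes that averaged at least 2 CPM, have a symbol and show no overlap of groups, the 6 most abundant in each direction changed at least 1.5-fold, up to 5 called members per list by adjusted p, the 10 nearest tested genes on each side of Ing1, and markers of other cell types. A few genes that this rule names are not reported here. The comparison and the gene lists were chosen with earlier results of these data known; 1128 of 1135 list symbols had an identifier.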

Additional observations from a re-analysis of the deposited data

Results flagged for a closer look

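For 15 of the 24 genes that changed most, the effect of Ing1 loss differed between the comparison of Ing1 KO with the WT and that of the libraries labelled DKO with those labelled Gadd45a KO, by a test of the difference itself. Among genes of the interferon response the second effect was higher each time. By the mean level of the effector list, the libraries labelled Gadd45a KO that it starts from lay below the WT. Isg15, the ubiquitin-like modifier, had a log2 fold change of -2.32 in Ing1 KO and 1.20 in the labelled Gadd45a KO background (difference 3.52 ± 0.38 SE, adjusted p = 0.00125 in edgeR). Ifit1, a sensor of viral RNA, had a log2 fold change of -2.54 in Ing1 KO and 1.04 in the labelled Gadd45a KO background (difference 3.59 ± 0.47 SE, adjusted p = 0.00216 in edgeR). Usp18, the protease for Isg15, had a log2 fold change of -2.28 in Ing1 KO and 1.08 in the labelled Gadd45a KO background (difference 3.35 ± 0.39 SE, adjusted p = 0.000787 in edgeR). Oasl2, a relative of RNA-sensing enzymes, had a log2 fold change of -2.45 in Ing1 KO and 0.48 in the labelled Gadd45a KO background (difference 2.93 ± 0.40 SE, adjusted p = 0.00265 in edgeR). Sp100, of nuclear bodies, had a log2 fold change of -2.03 in Ing1 KO and 0.17 in the labelled Gadd45a KO background (difference 2.20 ± 0.27 SE, adjusted p = 0.000914 in edgeR). Slfn5, of the Schlafen family, had a log2 fold change of -3.04 in Ing1 KO and -0.99 in the labelled Gadd45a KO background (difference 2.04 ± 0.25 SE, adjusted p = 0.00101 in edgeR).

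Genes of other kinds that fell in Ing1 KO fell less or not at all in the second comparison. Gm15446, a predicted gene, had a log2 fold change of -2.68 in Ing1 KO and 0.00 in the labelled Gadd45a KO background (difference 2.69 ± 0.55 SE, adjusted p = 0.0099 in edgeR). Egfl6, a matrix protein, had a log2 fold change of -2.49 in Ing1 KO and -0.59 in the labelled Gadd45a KO background (difference 1.90 ± 0.35 SE, adjusted p = 0.00948 in edgeR). Il31ra, a cytokine receptor subunit, had a log2 fold change of -2.23 in Ing1 KO and -0.42 in the labelled Gadd45a KO background (difference 1.81 ± 0.47 SE, adjusted p = 0.026 in edgeR). Olfml1, a secreted protein, had a log2 fold change of -2.20 in Ing1 KO and -0.44 in the labelled Gadd45a KO background (difference 1.75 ± 0.31 SE, adjusted p = 0.00387 in edgeR).

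Of genes that rose in Ing1 KO, these differed. Pitx1, the hindlimb factor, had a log2 fold change of 2.01 in Ing1 KO and 0.16 in the labelled Gadd45a KO background (difference -1.85 ± 0.46 SE, adjusted p = 0.0207 in edgeR). Rbfox1, the splicing regulator, had a log2 fold change of 1.90 in Ing1 KO and -0.34 in the labelled Gadd45a KO background (difference -2.24 ± 0.33 SE, adjusted p = 0.00198 in edgeR). Foxd1, a stromal factor, had a log2 fold change of 1.84 in Ing1 KO and -0.08 in the labelled Gadd45a KO background (difference -1.93 ± 0.61 SE, adjusted p = 0.0489 in edgeR). Col10a1, a cartilage collagen, had a log2 fold change of 1.83 in Ing1 KO and 0.31 in the labelled Gadd45a KO background (difference -1.52 ± 0.44 SE, adjusted p = 0.033 in edgeR). Smoc1, the secreted modulator of BMP signals, had a log2 fold change of 1.59 in Ing1 KO and 0.23 in the labelled Gadd45a KO background (difference -1.36 ± 0.37 SE, adjusted p = 0.0341 in edgeR). Each gene was chosen for its size in the first comparison. In the second, Ing1 had 49.7, 54.5 and 52.2 CPM in the libraries labelled Gadd45a KO. It had 1.29, 0.916 and 1.14 CPM in those labelled DKO. The name of that background rests on the Gadd45a labels, which counts of Gadd45a do not check. No cause was tested.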

How the results depend on the processing

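The count of genes called in Ing1 KO against the WT, 3543, was 3619 with DESeq2, 3559 with RLE scaling, 3200 without the filter on low counts, 3541 with a stricter filter and 2433 with only the 6 libraries fitted. Leaving out single libraries gave 1858 (without Ing1 KO replicate 2) to 3548, with 2113 without WT replicate 2. The count of genes changed at least 2-fold, 426, was 281 with the stricter filter, which tests fewer genes of low counts, and 263 (without Ing1 KO replicate 2) to 510 without single libraries. In the labelled Gadd45a KO background 3988 became 2679 to 3404. No named gene changed direction; of 262 called, 208 kept the call in every alternative run, and 47 lost it without Ing1 KO replicate 2 and 39 without WT replicate 2. The median log2 fold change of all genes, -0.0026 in the main fit, was 0.0021 with RLE scaling and 0.0037 with DESeq2. Without the filter on low counts it was 0.0097.

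Replicate numbers were tried as a replicate block, which gave 3434 called genes, 403 changed at least 2-fold and 3856 in the other background. The numbers did not pair the libraries: deviations of same-numbered WT and Ing1 KO libraries had correlations across genes of 0.005, -0.18 and -0.034. Depth limits mainly the genes that did not pass the filter on low counts.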

Other observations

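Of the genes called, 1780 of the higher and 1655 of the lower are protein coding, and 13 and 18 are annotated as long noncoding RNA. Transcription factors of the stress and fat programmes that were chosen after their values were seen are given here as values: Ddit3 had 70.98, 67.8 and 57.2 CPM in the WT and 54.2, 64.4 and 63.04 CPM in Ing1 KO (log2 fold change -0.11, SE 0.10, adjusted p = 0.481 in edgeR), Cebpb had 18.7, 15.9 and 17.2 CPM in the WT and 15.999, 15.01 and 14.8 CPM in Ing1 KO (log2 fold change -0.18, SE 0.10, adjusted p = 0.218 in edgeR) and Cebpd had 24.1, 18.9 and 22.1 CPM in the WT and 28.1, 24.5 and 20.5 CPM in Ing1 KO (log2 fold change 0.17, SE 0.15, adjusted p = 0.472 in edgeR). Des, the muscle intermediate filament gene, had 30.8, 38.4 and 34.2 CPM in the WT and 73.3, 66.8 and 36.2 CPM in Ing1 KO (log2 fold change 0.77, SE 0.34, adjusted p = 0.137 in edgeR), and Acta1, skeletal muscle actin, had 23.5, 18.2 and 22.6 CPM in the WT and 40.4, 65.6 and 46.7 CPM in Ing1 KO (log2 fold change 1.25, SE 0.16, adjusted p = 0.000777 in edgeR). Cilp, a cartilage protein that binds TGF-beta and was chosen in the same way, had 7.19, 7.73 and 4.84 CPM in the WT and 4.14, 0.915 and 0.792 CPM in Ing1 KO (log2 fold change -1.77, SE 0.50, adjusted p = 0.0299 in edgeR). Cilp lost its call without Ing1 KO replicate 2 (adjusted p = 0.0997), Ing1 KO replicate 3 (0.0644), WT replicate 1 (0.0671) or WT replicate 2 (0.0949). Cilp (adjusted p = 0.1347) lost the call with only the 6 libraries fitted. Cilp (adjusted p = 0.0721) lost the call without the filter on low counts.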
